A study of Mus musculus with 12 samples.

Results

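The carboxylesterases are a family of serine hydrolases that the liver makes in large amounts, and 10 of their genes are described here in mouse liver: Ces1c, Ces1d, Ces1e, Ces1f, Ces1g, Ces2a, Ces2e, Ces3a, Ces3b and Ces4a. They were taken from the deposited expression table by gene symbol, 10 of 12284 named genes, and all 10 had values in every library. The 10 were chosen by their measured DKO and WT levels and the difference between them. The table also held 4 other Ces genes (Ces1b, Ces2b, Ces2c and Ces2g), which are given separately. Differences of the 10 genes between the groups are therefore a description and support nothing further.

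The study sequenced polyadenylated liver RNA of mice with floxed alleles of both genes (Acly f/f; Acss2 f/f). The 6 control libraries (WT) came from such mice given AAV8-TBG-GFP and the 6 double knockout libraries (DKO) from such mice given AAV8-TBG-Cre. Virus was injected at 6 to 8 weeks of age, and a Western diet began 1 week afterwards and lasted 6 weeks. The TBG promoter is active in hepatocytes, so the other cells of the liver keep both genes, and the groups differ in Cre and GFP as well as in the deletion, which cannot be told apart. The labels give neither sex nor whether each library is a separate mouse, so p-values measure the spread between libraries, which may be technical.

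Carboxylesterases cleave esters, amides and thioesters with a catalytic serine, and most of them sit in the lumen of the endoplasmic reticulum. In the liver they hydrolyse ester drugs and prodrugs, and several also act on triglycerides, diglycerides, cholesteryl esters or retinyl esters. Ces1d (triacylglycerol hydrolase) is best known for releasing fatty acids from stored triglyceride that are then used to lipidate very low density lipoprotein (VLDL). In the mouse the family has expanded by tandem duplication into a Ces1 cluster and a second cluster with the Ces2, Ces3 and Ces4a genes, both on chromosome 8.

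Values are log2 CPM, the log2 of counts relative to library size as the authors normalized it, and the number of reads behind each library is unknown. Of the targeted genes, Acly fell to 17.6% of its control level (limma adjusted p = 0.0165) and Acss2 fell by 2.18 on the log2 scale (limma adjusted p = 0.00571). Acly ranged from 6.56 to 9.35 log2 CPM in the controls and from 4.42 to 6.60 after deletion, so that DKO 1 (6.60) exceeded WT 5 (6.56); the Acss2 values did not overlap. WT 1 was the highest control for Acly and Acss2, and DKO 1 the highest DKO library for both. Library sums after removing the log ranged from 905964 to 1087990 CPM. Libraries correlated with the others of their group at a mean r of 0.945 (DKO 1) to 0.965 (WT 2) across genes. The hepatocyte markers were abundant in every library, summing to 74197 to 89325 CPM over 9 genes in WT and 62362 to 94420 CPM in DKO.

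Of the 10 carboxylesterases, 9 had a lower mean in DKO than in WT and 1, Ces1e, a higher one. Their median log2 fold change (DKO minus WT) was -0.48, beside 0.0041 over all 12284 genes, of which 49.2% were lower in DKO. With limma at an adjusted p below 0.05 over all genes, 3 of the 10 were called, all lower (Ces1f, Ces2e and Ces4a), beside 1.74% of all genes called in either direction, 1.12% called lower and 0.619% called higher. WT and DKO ranges were separate for 2 of the 10, Ces2e and Ces4a, both lower, beside 2.17% of all genes with groups that do not overlap (1.38% lower and 0.79% higher). Because the genes were chosen on this comparison, nothing is read from these counts. Under quantile normalization 7 of the 10 were lower, since Ces1c and Ces3a changed sign.

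As a group these genes were abundant. Together the 10 took 5420 to 6970 CPM in WT and 4730 to 6316 CPM in DKO, between 0.461% and 0.716% of a library. The mean sum was 6176 ± 519 CPM for the controls and 5223 ± 567 CPM for DKO (SD over 6 libraries), or 84.6% of WT. The DKO libraries 1 to 5 lay below all WT libraries, and DKO 6 (6316 CPM) lay within the WT range. Ces3a and Ces1c alone made up 64.3% of the sum on average over the 12 libraries. In bulk tissue, fewer cells that express a gene and less RNA per cell cannot be told apart.

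**Figure D1:**
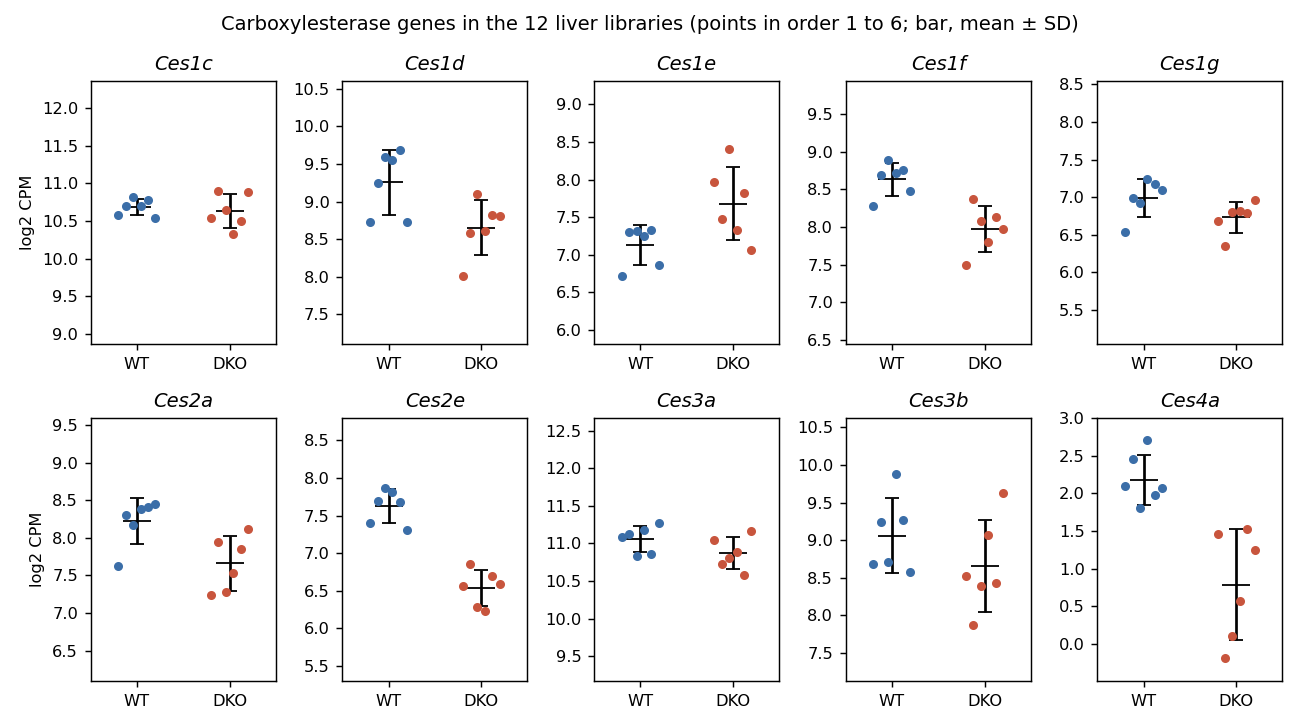
Each panel plots 1 carboxylesterase gene in log2 CPM for the 6 WT (blue) and 6 DKO (red) libraries, in order of their numbers, with the mean and SD as bars; all panels span the same number of log2 units. The DKO points of Ces2e and Ces4a all lie below the WT points, those of Ces1e lie mostly above, and Ces1c and Ces3a overlap broadly.

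In the Ces1 cluster the 5 genes went different ways. Ces1c encodes the esterase that mouse liver secretes into plasma, and it was the steadiest member: it ranged from 10.54 through a median of 10.70 to 10.81 log2 CPM in WT and from 10.33 through 10.59 to 10.90 in DKO. Its log2 fold change was -0.05 (SE 0.11), with the highest and the lowest of the 12 values both in DKO. The sign of that difference was positive under quantile normalization (0.16) and without DKO 4 (0.0084).

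Ces1d, the triacylglycerol hydrolase, ranged from 8.73 through 9.40 to 9.69 log2 CPM in WT and from 8.01 through 8.71 to 9.10 in DKO. Its mean in DKO was 65.8% of WT (log2 fold change -0.60, SE 0.20) and it was not among the genes called. All 6 DKO values lay below the WT mean, yet WT 1 and WT 6, both at 8.73, lay below 3 of the DKO values. Ces1f, also known as triacylglycerol hydrolase 2, ranged from 8.28 through 8.70 to 8.89 log2 CPM in WT and from 7.49 through 8.02 to 8.37 in DKO. That is 63.2% of WT (log2 fold change -0.66, SE 0.14). DKO 2 (8.37) exceeded WT 1 (8.28), and the other DKO values lay below all WT values.

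Ces1g, an esterase that acts on triglyceride and cholesteryl ester, ranged from 6.54 through 7.05 to 7.24 log2 CPM in WT and from 6.35 through 6.80 to 6.96 in DKO, a log2 fold change of -0.26 (SE 0.12). WT 1 was again the lowest control, and it and WT 3 (6.92) lay inside the DKO range. Ces1e encodes egasyn, which holds beta-glucuronidase in the endoplasmic reticulum. It ranged from 6.71 through 7.28 to 7.33 log2 CPM in WT and from 7.06 through 7.65 to 8.41 in DKO, 1.46-fold higher (log2 fold change 0.55, SE 0.20), and was not among the genes called. Of the 6 DKO libraries 5 exceeded the highest WT value, DKO 4 by less than the rounding shows (7.33 in both), and DKO 6 (7.06) did not.

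Ces1e and its neighbours were also set against each other within each library, where library size cancels; these pairs were chosen after their values were seen. Ces1e minus Ces1d, a difference in log2 CPM, averaged -2.13 ± 0.21 over the controls and -0.98 ± 0.57 over the DKO libraries (SD over 6 libraries). Its values ran from -2.37 to -1.86 in WT and from -1.74 to -0.05 in DKO, with no overlap. Ces1e minus Ces1f was -1.50 ± 0.09 in WT, with a narrow range of -1.61 to -1.38, and -0.29 ± 0.59 in DKO, from -0.91 to 0.48. In 2 DKO libraries (DKO 1 and DKO 3) Ces1e had the higher log2 CPM. By contrast Ces1d minus Ces1f was 0.62 ± 0.25 in WT and 0.68 ± 0.29 in DKO, with overlapping ranges.

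**Figure D2:**
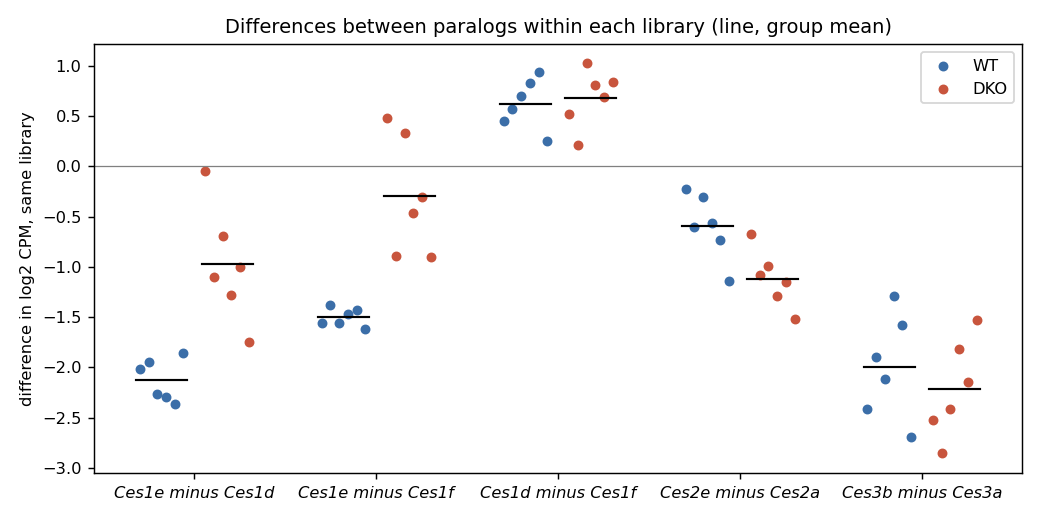
For 5 pairs of paralogs, each point is the log2 CPM of the first gene minus that of the second in 1 library (WT blue, DKO red, libraries in order of number), and lines are group means. The points of both groups are apart for Ces1e minus Ces1d and Ces1e minus Ces1f and overlap for the 3 other pairs.

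In the second cluster all 5 genes had lower means in DKO. Ces2a, an esterase of drugs and of acylglycerols, ranged from 7.63 through 8.34 to 8.45 log2 CPM in WT and from 7.24 through 7.69 to 8.11 in DKO, or 67.7% of WT (log2 fold change -0.56, SE 0.17). WT 1, the control with the most Acly, stood apart from the others at 7.63, inside the DKO range. DKO 1, the DKO library with the most Acly, was the lowest of its group for Ces1d, Ces1f and Ces2a. It was not the lowest for any other member, and lay above the DKO mean for Ces1e, Ces2e, Ces3a and Ces4a. A relation to Acly was not tested. For Ces2a every WT library except WT 1 lay above every DKO library. Ces2a was not among the genes called with all 12 libraries, and was called without WT 1, with a log2 fold change of -0.68.

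Ces2e, a second Ces2-type esterase, showed the clearest separation of the family. It ranged from 7.31 through 7.68 to 7.87 log2 CPM in WT and from 6.24 through 6.58 to 6.86 in DKO, 47.0% of WT (log2 fold change -1.09, SE 0.12). The lowest control (WT 6, 7.31) lay above the highest DKO library (DKO 2, 6.86). It was called in all 21 alternative analyses, with a log2 fold change between -1.15 and -0.99. Within a library, Ces2e minus Ces2a averaged -0.60 ± 0.33 in WT against -1.12 ± 0.29 in DKO (difference in log2 CPM, SD over 6 libraries), with overlapping ranges.

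The 250 bases upstream of the start of Ces2a, Ces2c, Ces2e and Ces2g are printed because these are the Ces2 genes of the table with an entry, and all 4 had lower means in DKO (Ces2c only with DKO 2 included, 0.036 without it); Ces2c and Ces2g are described with the other Ces genes. The windows are RefSeq sequence of build GRCm38.p6, plus strand, at chr8:104733753-104734002, chr8:104846818-104847067, chr8:104926010-104926259 and chr8:104961468-104961717, and the study's own build was GRCm39. Capitals mark the 6 letters ACTTTG, the reverse complement of CAAAGT, which the Ces2c window does not hold.
Ces2a: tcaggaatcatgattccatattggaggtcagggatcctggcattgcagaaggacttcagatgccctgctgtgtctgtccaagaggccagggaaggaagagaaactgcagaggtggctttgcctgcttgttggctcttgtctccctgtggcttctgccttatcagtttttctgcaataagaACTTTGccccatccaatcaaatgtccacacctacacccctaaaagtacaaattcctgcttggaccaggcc
Ces2c: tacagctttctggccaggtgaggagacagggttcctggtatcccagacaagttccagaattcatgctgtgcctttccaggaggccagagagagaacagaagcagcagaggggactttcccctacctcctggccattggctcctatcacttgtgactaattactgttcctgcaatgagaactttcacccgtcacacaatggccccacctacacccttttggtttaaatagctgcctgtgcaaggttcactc
Ces2e: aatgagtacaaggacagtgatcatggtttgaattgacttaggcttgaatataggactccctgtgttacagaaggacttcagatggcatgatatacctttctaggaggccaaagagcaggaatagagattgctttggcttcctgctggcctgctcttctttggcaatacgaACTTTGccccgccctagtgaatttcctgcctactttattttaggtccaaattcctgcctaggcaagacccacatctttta
Ces2g: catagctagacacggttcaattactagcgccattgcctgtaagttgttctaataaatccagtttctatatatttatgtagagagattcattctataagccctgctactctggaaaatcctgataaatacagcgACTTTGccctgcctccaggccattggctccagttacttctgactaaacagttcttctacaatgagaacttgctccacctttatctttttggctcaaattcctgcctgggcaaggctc
Ces2a and Ces2e aligned with 69.9% identity over 216 bases of these windows, Ces2a and Ces2g with 70.1% over 197, and Ces2e and Ces2g with 64.4% over 216. The Ces2c window, without the motif, aligned with 67.5% identity to Ces2a over 243 bases, 66.8% to Ces2e over 214 and 74.5% to Ces2g over 192. CAAAGT was searched after these sequences had been read, on both strands, and lies in 3 of the 10 Ces genes with an entry (of the 14 in the table), Ces2a, Ces2e and Ces2g, beside 12.6% of 32851 windows of the same length. Of 6 other motifs searched the same way, CCAAT lay in 7 of the 10 genes (33.8% of all windows), TATAAA in 2 (12.4%), AGGTCA in 2 (14%) and GTTAAT in 1 (6.43%). TGACNNNGC (10.2% of all windows) and CACGTG (6.02%) lay in 0 of them. These are matches of letters only.

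Ces3a and Ces3b, esterases of the hepatocyte endoplasmic reticulum that lie side by side, were both among the more abundant members. Ces3a ranged from 10.83 through 11.11 to 11.27 log2 CPM in WT and from 10.58 through 10.85 to 11.16 in DKO, a log2 fold change of -0.19 (SE 0.12) with overlapping groups. Under quantile normalization its sign was positive (0.033). Ces3b was the most variable of the abundant members: it ranged from 8.57 through 8.98 to 9.89 log2 CPM in WT and from 7.87 through 8.48 to 9.63 in DKO (log2 fold change -0.41, SE 0.28). WT 4 and DKO 6 were the highest of their groups, and DKO 6 exceeded all WT libraries but WT 4.

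How reads were divided between Ces3a and Ces3b bears on both values. Their transcripts in the GENCODE M21 annotation aligned with 95.4% identity over 2046 bases. Of all stretches of 31 bases (the default word length of kallisto, which the submitters name; the setting they used is unknown) 42.6% of those in Ces3a and 36.1% of those in Ces3b occurred in the other gene. The longest run shared by their coding sequences, 194 bases from base 514 to base 707 of each, is printed because a read inside it cannot be assigned to 1 of them.
Ces3a and Ces3b shared run: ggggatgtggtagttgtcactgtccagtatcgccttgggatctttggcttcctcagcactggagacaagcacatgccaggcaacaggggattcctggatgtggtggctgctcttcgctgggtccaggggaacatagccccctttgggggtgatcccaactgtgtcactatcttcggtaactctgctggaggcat
The separate levels of Ces3a and Ces3b are therefore uncertain. The difference of Ces3b minus Ces3a within a library moved by -0.22 log2 CPM from WT to DKO, with an SD of 0.52 in WT and 0.48 in DKO and overlapping ranges.

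The other members differed widely in how much sequence they shared with other genes. The share of stretches found in another gene was 5.54% for Ces1f, 6.23% for Ces1g, 7.50% for Ces1d, 8.66% for Ces1e and 8.77% for Ces2e, so most of their sequence was their own. It was 30.1% for Ces1c, mostly with Ces1b (21.2%), and 37.4% for Ces2a, mostly with the gene model Gm7208 (30.9%), so the levels of Ces1c and Ces2a are uncertain in the same way. Ces4a shared 0% of its stretches.

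**Figure D3:**
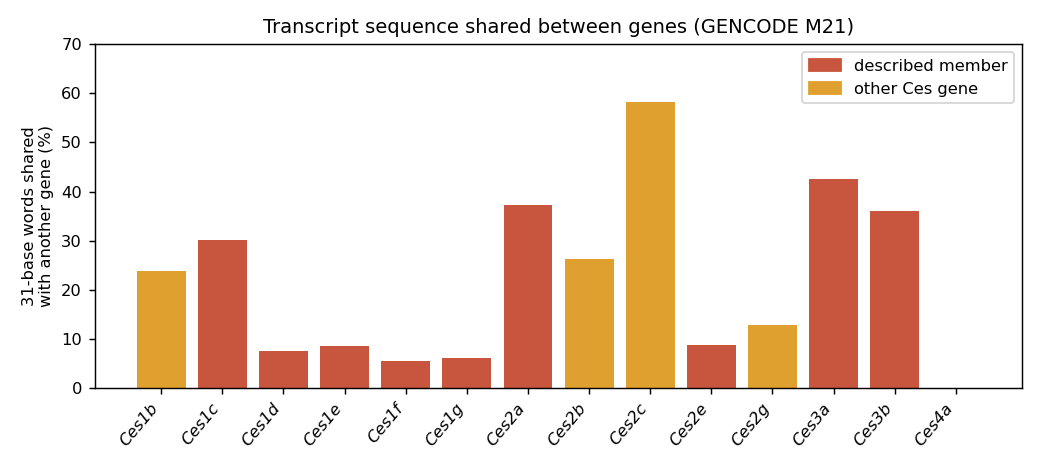
Bars give, for the transcript of each Ces gene with the longest coding sequence, the percentage of its distinct 31-base stretches that also occur in a transcript of another gene (described members red, other Ces genes yellow). Ces3a, Ces2a, Ces3b and Ces1c are the 4 described members above 30%, and Ces4a is at 0%.

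Ces4a, the least abundant member, had the largest fold difference. It ranged from 1.80 through 2.08 to 2.71 log2 CPM in WT and from -0.19 through 0.91 to 1.53 in DKO, 38.0% of WT (log2 fold change -1.40, SE 0.31). The groups did not overlap, but the gap between WT 3 (1.80) and DKO 5 (1.53) was small and the DKO values spread widely (SD 0.73 against 0.33 in WT). On the log2(CPM + 1) scale the log2 fold change was -0.99. Its 250 upstream bases (RefSeq, GRCm38.p6, chr8:105131550-105131799, plus strand) are printed as those of the gene with the largest difference; capitals mark TGACCT, the reverse complement of AGGTCA, which Ces2a holds too.
Ces4a: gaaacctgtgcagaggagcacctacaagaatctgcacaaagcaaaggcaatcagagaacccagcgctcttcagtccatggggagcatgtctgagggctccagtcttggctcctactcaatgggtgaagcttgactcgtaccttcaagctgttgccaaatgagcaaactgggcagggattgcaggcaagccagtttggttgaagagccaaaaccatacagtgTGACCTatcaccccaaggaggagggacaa

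The number of the 10 genes called moved with single libraries, as did the number over all genes. The number among the 10 was 4 without WT 1, and 1 without WT 2, WT 3, WT 4, WT 5, WT 6, DKO 3 or DKO 4; it was 2 without DKO 2 and 3 without DKO 1, DKO 5 or DKO 6. Over all genes 214 were called, 373 without WT 1, 92 to 122 without 1 of WT 2 to WT 6, 107 without DKO 3, 93 without DKO 4, 182 without DKO 2, 124 without DKO 1, 148 without DKO 5 and 306 without DKO 6. Ces1f lost its call without WT 2 to WT 6, DKO 3 or DKO 4, with a log2 fold change between -0.74 and -0.57 whichever library was left out. Ces4a lost it without the same 7 libraries or DKO 2, with a log2 fold change between -1.54 and -1.20.

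Compared per kilobase of transcript, the order of the members by level was almost the same in both groups. In WT it ran from Ces3a (10.03 ± 0.18 log2 CPM per kilobase) and Ces1c (9.82 ± 0.11) through Ces1d (8.25 ± 0.43), Ces3b (7.80 ± 0.50), Ces1f (7.69 ± 0.22) and Ces2a (7.25 ± 0.31). Below these came Ces2e (6.19 ± 0.22), Ces1e (6.08 ± 0.27), Ces1g (5.74 ± 0.25) and Ces4a (0.90 ± 0.33; SD, n = 6 each). Neighbours in this order overlapped in their WT ranges except Ces1c above Ces1d, Ces2a above Ces2e and Ces1g above Ces4a. In DKO the order of the first 6 was unchanged, and Ces2e dropped from place 7 to place 9, at 5.11 ± 0.24, below Ces1e (6.63 ± 0.49) and Ces1g (5.48 ± 0.21). The length used was that of the GENCODE M21 transcript of each gene with the longest coding sequence. The places of Ces3a, Ces1c, Ces3b and Ces2a rest on levels that are uncertain because of shared sequence, as described above.

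The 4 other Ces genes of the table were tested like all genes, and 0 were called by limma; at an unadjusted p below 0.05 the count was 1, Ces2g, beside 2017 of all 12284 genes. Ces2g, between Ces2e and Ces3a in the second cluster, came closest: its level was 5.55 ± 0.17 log2 CPM for the controls and 4.97 ± 0.32 for DKO (SD over 6 libraries), 67.1% of WT (limma adjusted p = 0.0509, range 0.0256 to 0.115 over the alternatives), with 5 of 6 DKO libraries below all WT libraries. Ces2c, a triglyceride and diglyceride hydrolase, had a log2 fold change of -0.22 (SE 0.27, limma adjusted p = 0.741), and DKO 2 stood lowest at 4.30 log2 CPM. Ces2c shared 58.2% of its stretches with other genes, mostly Ces2d-ps (50.2%), so its level is uncertain in the same way as those of Ces1c and Ces2a. Ces1b had a log2 fold change of 0.30 (SE 0.14, limma adjusted p = 0.306) and shared 23.9% of its stretches with other genes, mostly Ces1c. Ces2b lay between -2.60 and 2.93 log2 CPM over the 12 libraries, far more than its log2 fold change of 0.29 (SE 0.90, limma adjusted p = 0.912). It shared 26.4% of its stretches with other genes.

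The flanking genes reported here were not called. In RefSeq order, those of the Ces1 cluster are Fto, Mmp2 and Lpcat2 on one side and Nudt21 and Ogfod1 on the other, with log2 fold changes from -0.22 to 0.41 (smallest limma adjusted p = 0.210, Ogfod1). Around the second cluster they are Nae1, Car7 and Pdp2, then Cbfb, D230025D16Rik and B3gnt9, from -0.57 to 0.85. Pdp2, a phosphatase that activates pyruvate dehydrogenase and the measured gene next to Ces2a, stood at 67.3% of WT (limma adjusted p = 0.103).

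**Figure D4:**
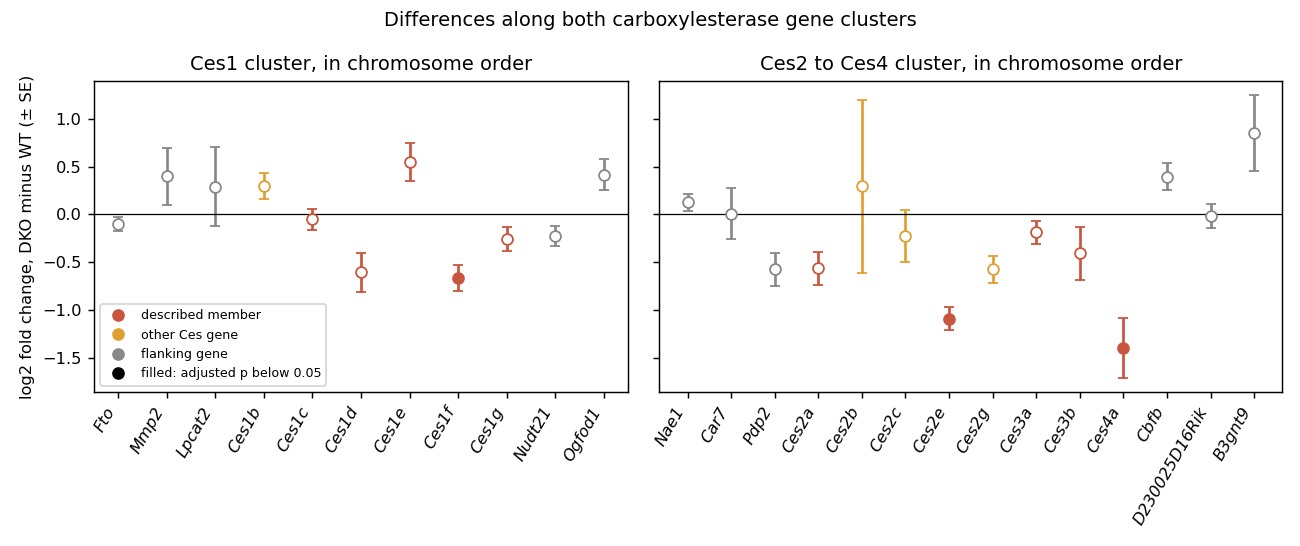
Log2 fold change (DKO minus WT) with its standard error for all measured Ces genes and the flanking genes reported for both clusters, in chromosome order; filled points have a limma adjusted p below 0.05. Ces1e lies above 0 between Ces1d and Ces1f, which lie below, and the filled points are Ces1f, Ces2e and Ces4a.

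How the members varied within a group did not enter the choice of genes, and was compared over 90 relations (45 pairs in each group of 6 libraries). Within the Ces1 cluster the 10 pairs had a median Pearson r of 0.90 in WT and 0.018 in DKO; whether the groups differ in this was not tested. In WT, Ces1e with Ces1f had r = 0.95 (exact permutation p = 0.00833, adjusted p = 0.25) and Spearman rho = 0.89 (exact permutation p = 0.0333, adjusted p = 0.60; n = 6). Ces1d with Ces1f had r = 0.91 (exact permutation p = 0.0111, adjusted p = 0.25) and rho = 0.89 (exact permutation p = 0.0333, adjusted p = 0.60; n = 6). None of the 90 passed after adjustment. Both relations were weaker without WT 1 and WT 6, in which Ces1d, Ces1e and Ces1f were low. Without these 2 libraries r was 0.53 for Ces1e with Ces1f and 0.55 for Ces1d with Ces1f. They are the libraries farthest from the median of the first gene, so leaving them out narrows its range and can by itself lower r. Over the 10 pairs the median r without the 2 farthest libraries was 0.45. Pairs differed in this. For Ces1c with Ces1f, r was 0.90 (exact permutation p = 0.0153, adjusted p = 0.26) and 0.91 without WT 1 and WT 6. Its rho was 0.94 (exact permutation p = 0.0167, adjusted p = 0.60). Without the same libraries r was 0.25 for Ces1d with Ces1e (0.93 with them). It was negative for Ces1g with Ces1c (-0.43), with Ces1e (-0.57) and with Ces1f (-0.52). The highest r of all in WT lay between the clusters, Ces1g with Ces2a, with r = 0.96 (exact permutation p = 0.0111, adjusted p = 0.25), rho = 0.77 (exact permutation p = 0.103, adjusted p = 0.66) and r = 0.91 without WT 1 and WT 4.

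Over all 12 libraries with the group means subtracted, the median r was 0.31 within the Ces1 cluster (10 pairs), 0.22 within the second cluster (10 pairs) and 0.058 between the clusters (25 pairs), as a description. By the same measure, the genes outside the family most like the mean profile of the Ces1 members, among the 8000 genes whose mean level reached 3 log2 CPM, were Pla2g6 (r = 0.93), Slc25a10 (r = 0.93) and Egln1 (r = 0.92). For the second cluster they were Aspg (r = 0.86), Aptx (r = 0.85) and Pes1 (r = 0.84). These are the highest of many values over 12 libraries and carry no test.

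Enzymes with overlapping substrates were also compared. Among 9 measured other esterases and epoxide hydrolases 8 were lower in DKO, 3 fell and 0 rose (median log2 fold change -0.32). Over all genes 49.2% were lower, 1.12% were called lower and 0.619% called higher. The lists were chosen with earlier results of these data known, so their counts are a description. Ephx2, the soluble epoxide hydrolase, fell to 67.0% of WT (limma adjusted p = 0.00571, range 0.00286 to 0.0573). Pon1, the paraoxonase carried on high density lipoprotein, fell to 65.7% (adjusted p = 0.0200, range 0.00973 to 0.0551), and Pon3 to 75.0% (adjusted p = 0.0406, range 0.0195 to 0.0934). The number called was 1 without WT 5 or WT 6, and 0 under quantile normalization. It was 2 without WT 2, WT 3, WT 4, DKO 1, DKO 3, DKO 4 or DKO 6. Pon3 was not called without any of WT 2 to WT 6, DKO 1, DKO 3, DKO 4 or DKO 6.

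Among 13 measured other hydrolases of neutral lipids 10 were lower, 1 fell and 0 rose (median log2 fold change -0.14). The shares over all genes were 49.2% lower, 1.12% called lower and 0.619% called higher. Lipc, hepatic lipase, fell to 72.6% of WT (limma adjusted p = 0.0372, range 0.0126 to 0.0878), a call lost without any of WT 2 to WT 6 or of DKO 1, DKO 3, DKO 4 and DKO 5. Aadac, arylacetamide deacetylase, which shares substrates with the carboxylesterases, stood at 96.1% of WT (limma adjusted p = 0.846).

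CAR and PXR are nuclear receptors that sense drugs and bile acids and are known to regulate several Ces genes. Of 14 listed targets 11 were lower in DKO, 3 fell and 0 rose (median log2 fold change -0.44). Beside these, 49.2% of all genes were lower, 1.12% were called lower and 0.619% called higher. Cyp2c37 fell to 50.7% of WT (limma adjusted p = 0.0144, range 0.00589 to 0.0416), Cyp2c29 to 54.4% (adjusted p = 0.0357, range 0.0100 to 0.0817) and Ugt1a1, the bilirubin glucuronosyltransferase, to 65.1% (adjusted p = 0.0282, range 0.0114 to 0.0885). The number called was 5 without WT 1 or DKO 6, 2 without WT 2 or DKO 5, and 1 without WT 3, WT 4, WT 5, WT 6, DKO 1, DKO 3 or DKO 4. Cyp2b10, a classic CAR target, had the largest difference of the list but a wide spread (log2 fold change -2.80, SE 0.76, adjusted p = 0.0802).

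Of 12 measured nuclear receptors and liver transcription factors 10 were lower and 0 were called (median log2 fold change -0.15). The shares over all genes were 49.2% lower and 1.74% called in either direction. Nr1i3, the gene of CAR, was closest, at 8.33 ± 0.58 log2 CPM for the controls and 7.32 ± 0.60 for DKO (SD over 6 libraries), 49.8% of WT (limma adjusted p = 0.0950), and 1 gene was called without WT 1. Nr1i2, the gene of PXR, stood at 83.0% of WT (limma adjusted p = 0.247) and Hnf4a at 84.5% (limma adjusted p = 0.268).

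All 14 measured genes of VLDL assembly had lower means in DKO, but 0 were called by limma (median log2 fold change -0.23). Over all genes 49.2% were lower and 1.74% were called in either direction. Mttp, the transfer protein that loads lipid onto apolipoprotein B, stood at 78.1% of WT (limma adjusted p = 0.0844) and Apob itself at 85.5% (limma adjusted p = 0.406). In retinyl ester and retinoid handling 7 of 10 were lower, 2 fell and 0 rose (median log2 fold change -0.09). Of all genes 1.12% were called lower and 0.619% called higher. Aldh1a1, a retinaldehyde dehydrogenase, fell to 67.8% of WT (limma adjusted p = 0.0120, range 0.00897 to 0.0438), and Dhrs3, a retinaldehyde reductase, to 77.6% (adjusted p = 0.0356, range 0.0152 to 0.0854). Dhrs3 was not called without WT 2 to WT 6, DKO 3, DKO 4 or DKO 5.

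**Figure D5:**
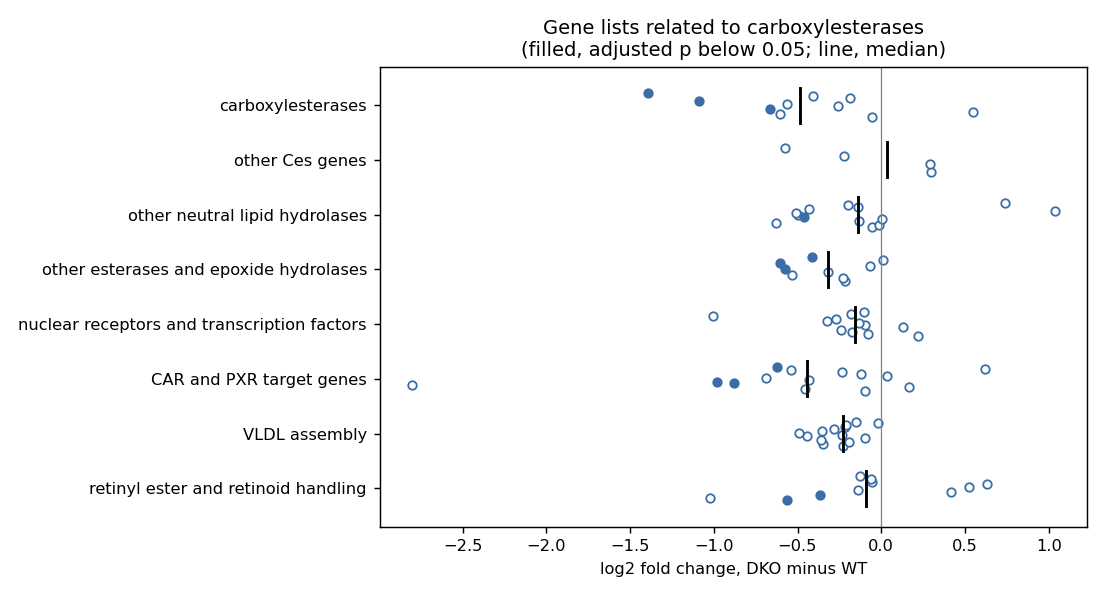
Each point is the log2 fold change (DKO minus WT) of 1 gene in the carboxylesterases and in 7 related lists; filled points have a limma adjusted p below 0.05 and lines are medians. The medians run from -0.48 for the carboxylesterases to 0.04 for the other Ces genes, and all filled points lie below 0.

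Most markers of macrophages, endothelial cells and stellate cells or fibroblasts were higher in DKO, most hepatocyte markers were lower, and few were called. Over all genes 49.2% were lower in DKO, 1.12% were called lower and 0.619% called higher. All 12 measured macrophage markers were higher in DKO, 1 of them called (Lyz2, limma adjusted p = 0.0357), with sums of 374 to 709 CPM in WT and 508 to 817 CPM in DKO. All 10 endothelial markers (368 to 446 CPM in WT, 399 to 526 in DKO) and 7 of 8 stellate or fibroblast markers were higher, with 0 called by limma. Of the 9 measured hepatocyte markers 7 were lower (median log2 fold change -0.17), and Asgr1, a receptor for asialoglycoproteins, fell (adjusted p = 0.0452). Pericentral and periportal hepatocyte markers (8 each) had medians of -0.04 and -0.13 with 0 called. Fat cells also express Ces1d and Ces1f. Of the adipocyte list, 2 of 6 genes were measured, and they went opposite ways. Cfd fell (limma adjusted p = 0.0364), and Fabp4 was higher but not called (log2 fold change 0.48, limma adjusted p = 0.313). Together they summed to 9.50 to 23.5 CPM in WT and 5.72 to 16.6 CPM in DKO. Of the 4 measured cholangiocyte markers 2 were lower and 2 higher. Among cholangiocyte (4 measured), lymphocyte (2) and pancreatic acinar (1) markers 0 were called. The part of any of these in the levels of the carboxylesterases was not tested.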

How the data were processed

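Polyadenylated RNA of 12 liver libraries was sequenced by the authors. The deposited table holds log2 CPM; its title says that these were filtered and normalized, and how is unknown. Its makers list edgeR, limma and kallisto 0.46.2 in the submitters' processing notes, with the build GRCm39 (mm39). Of 12285 rows, 1 without a name was left out (0.0075% to 0.0148% of a library).

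Groups came from the genotype labels. All 12284 genes were fitted with limma 3.58.1 in R 4.3.3 (mean trend, no covariate, 2-sided), with Benjamini-Hochberg adjustment and a threshold of 0.05; the fit was tested on simulated data. Alternatives left out each library, the mean trend or low genes, or used robust variances, array weights, log2(CPM + 1), other scalings or a replicate block. Without read counts no counting error could be given. The genes and lists were chosen with earlier results of these data known. Named were the 10 members, the other Ces genes, flanking genes, the most similar profiles, and the called genes of each list or else the closest; genes named beyond this rule (such as Aadac, Cyp2b10, Nr1i2, Hnf4a, Apob and Fabp4) were chosen after their values were seen. Transcript stretches came from GENCODE M21, with alignments by Biopython 1.88, and upstream sequences from RefSeq, which held 10 of the 14 Ces genes (not Ces1d, Ces1f, Ces2b or Ces3a). One flanking gene is not reported here. Figures used matplotlib 3.10.9 in Python 3.11.15.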

Additional observations from a re-analysis of the deposited data

Results flagged for a closer look

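Within each group of 6 libraries, the gap of the most extreme library to its nearest neighbour was compared with the range of the group, for 14 Ces genes and 5 sums; chance flags about 1 in 20 groups, and 4 of the 38 checked stood out. Ces2a was 7.63 log2 CPM in WT 1, against 8.17 to 8.45 in the other controls. Ces1b was 5.11 log2 CPM in WT 1, against 5.48 to 5.67 in the other controls. The 10 carboxylesterases summed to 6316 CPM in DKO 6, against 4730 to 5234 CPM in the other DKO libraries, and all 14 Ces genes to 6479 CPM in the same library, against 4875 to 5351 CPM.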

How the results depend on the processing

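The falls of Acly and Acss2 were called under each of the 21 alternatives. With all genes, 214 were called; the number was 138 without the mean trend, 109 with quantile normalization, 356 with array weights and 397 with the replicate number as a block, and 92 to 373 with 1 library left out. Among the 10 carboxylesterases 3 were called, 1 without the mean trend, 5 with the block and 1 to 4 with 1 library left out; Ces2e was called throughout, without the mean trend Ces1f and Ces4a were not, and Ces1f was not with quantile normalization. With the block, Ces1d and Ces2a were called as well. Same-numbered libraries of both groups had deviations that correlated between -0.077 and 0.29 over the 6 numbers. Whether the numbers pair the libraries was not tested. Of the calls per list, the CAR and PXR targets (3) had 1 without the mean trend, 1 with quantile normalization, 5 with array weights, 8 with the block and 1 to 5 with 1 library left out. Other neutral lipid hydrolases (1) had 0 without the mean trend, 0 with quantile normalization, 4 with the block and 0 to 1 with 1 library left out. Other esterases (3) had 2 without the mean trend, 0 with quantile normalization and 1 to 3 with 1 library left out. Retinoid genes (2) had 1 without the mean trend, 1 with quantile normalization and 1 to 2 with 1 library left out. Transcription factors (0) had 1 with the block and 0 to 1 with 1 library left out, and VLDL assembly (0) had 1 with the block. Of the other Ces genes, Ces2g was called (1 gene) with robust limma, log2(CPM + 1), either filter (mean of 1 or 3 log2 CPM), or library medians subtracted, and 0 to 1 were called with 1 library left out (1 without DKO 5 or DKO 6). Signs changed for Ces1c (0.16 with quantile normalization, -0.11 to 0.0084 with 1 library left out), Ces3a (0.033 with quantile normalization), Ces2b (-0.26 to 0.85 with 1 library left out, below 0 without WT 5, WT 6 or DKO 1) and Ces2c (-0.39 to 0.036, above 0 without DKO 2). Ces4a could not be fitted under the filter at 3 log2 CPM, nor Ces2b under either filter. The cause of these changes was not tested. Depth is unknown, so what it limits cannot be stated.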
